A study of Arabidopsis thaliana with 24 samples.

Results

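Leaf blades of Arabidopsis thaliana fed oxidized glutathione (GSSG) were compared between 2 harvests, 5 weeks (5W) and 4 weeks (4W) after sowing. The members were chosen by title: the 2 arrays titled 5W-GSSG and the 2 titled 4W-GSSG, 4 of the 24 arrays of the series. The plants were wild type, accession Columbia-0, and every pot received 25 ml of 1 mM GSSG from below once a week. At each harvest the second and the third fully expanded blade, counted from the top, were taken, so leaf position, not a given leaf, was matched between harvests. The other blades of the series, used here beside the GSSG ones, came from pots given 2 mM reduced glutathione (GSH), 3 mM NH4NO3 or water at the same 2 harvests, with 2 arrays each. The remaining 8 arrays were of whole aerial parts, shoot apex included, 3 weeks after sowing with the same 4 waterings, and they enter here only through the estimate of the spread. Each array measured 1 RNA sample, and the labels do not say whether the 2 replicates of a group came from separate pots. A p-value rests on the spread between replicate arrays, pooled over all groups of the 24 arrays. That spread may be technical.

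Glutathione is a tripeptide thiol with which plants buffer redox state and move reduced sulfur, and GSSG is the disulfide of a pair of GSH molecules. Both forms contain nitrogen and sulfur. In a rosette, fully expanded blades pass from building cell wall and photosynthetic machinery to exporting what they hold, and late in that course chlorophyll and plastid proteins are broken down, with autophagy and vacuolar proteases taking part.

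Values are signals in arbitrary units, scaled by the authors to the same trimmed mean of 500 on every array. Changes are 5W minus 4W on log2(signal + 16) with their standard error (SE), and p-values are limma's, adjusted by the Benjamini-Hochberg method over 22746 probe sets. No fold ratio is given where a group averaged under a signal of 100, and the change is then understated. Of the 22746 probe sets 2851, or 12.5%, passed an adjusted p under 0.05, 1411 higher at 5W (6.2%) and 1440 lower (6.33%). Of those called, 617 of the higher and 883 of the lower ones moved by more than 1 log2 unit. In each of the 2851 both arrays of one harvest lay beyond both of the other, as they did in 12284 probe sets, or 54%, over all tested. Where a called gene is described below as higher or lower on each array, this adds no support to its call. The median change over all probe sets was -0.03. The shares of 12.5%, 6.2% and 6.33% are the background for each count of called list members below.

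The arrays differed in quality signs. The actin control's 3'-over-5' ratio, which grows as RNA is degraded, was 3.05 and 3.11 at 5W and 3.70 and 4.48 at 4W with GSSG. The second 4W array shared its high ratio with the replicate 2 arrays of the other waterings at 4W, whose ratios were 4.29 to 4.81. For GAPDH the ratio was 1.02 and 1.17 at 5W and 1.07 and 1.20 at 4W, which overlap. The actin ratio was thus lower on both 5W arrays and the GAPDH ratio was not, and their part in the results was not tested beyond leaving arrays out. Of 11 listed mesophyll markers 1 was measured: RCA, Rubisco activase, had a signal of 31184 and 27477 at 5W and 35001 and 51110 at 4W. The 3 measured root markers of 7 listed, EXPA7, EXPA18 and PYK10, stayed at 61.5 or less on all 4 arrays. They summed to 85.5 and 86.1 at 5W and 139 and 79.7 at 4W. The shoot apex gene CLV3, the 1 measured of 8 listed, stayed at 7.94 or less. The count of 2851 was 1155 without 5W replicate 1, 1289 without 5W replicate 2, 2080 without 4W replicate 1 and 1669 without 4W replicate 2. With the spread taken from only the 16 blade arrays it was 2071.

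Measured nuclear genes of chlorophyll synthesis, the Calvin cycle, photorespiration and the photosystems with light harvesting all had a negative change. In that order they were 6 of 20, 4 of 20, 3 of 13 and 7 of 44 listed genes. All 6 measured genes of chlorophyll synthesis had a negative change and 5 fell, with a list median of -1.21. PORB, a light-dependent protochlorophyllide reductase, had a signal of 6335 and 6747 at 5W against 18150 and 18747 at 4W. That is 0.355 of the 4W mean, a log2 change of -1.49 ± 0.24 (adjusted p = 0.000474). CHLI2, a magnesium chelatase subunit, had 522 and 485 at 5W against 1680 and 1365 at 4W (-1.56 ± 0.28, adjusted p = 0.00124). CHLM, the methyltransferase of the next step, had 3388 and 4028 against 8795 and 10489 (-1.37 ± 0.22, adjusted p = 0.000497). In each of these 3 genes the harvests were far apart and the replicates close. AT1G74470, geranylgeranyl reductase, which makes the phytol tail, had a log2 change of -1.05 ± 0.22 (adjusted p = 0.00416), and HEMB1, an early enzyme of the tetrapyrrole route, fell by 0.97 ± 0.17 (adjusted p = 0.00114). GSA1, which makes aminolevulinate, had a change of -0.19 and did not pass. Only AT1G74470 among the 4 largest called members lost its call when 1 array was left out (adjusted p = 0.0551 without 5W replicate 2).

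Of 4 Calvin cycle genes 2 fell, with a list median of -1.06. AT1G56190, a phosphoglycerate kinase, had a signal of 1539 and 1829 at 5W against 5495 and 4910 at 4W, a ratio of 0.324 (-1.62 ± 0.19, adjusted p = 2.97e-05). SBPASE, sedoheptulose bisphosphatase, which regenerates the carbon dioxide acceptor, had 5610 and 5650 against 15047 and 15575 (-1.44 ± 0.19, adjusted p = 8.49e-05). Its replicates lay close together at each harvest. PRK, phosphoribulokinase (-0.68, adjusted p = 0.0725), and RCA (-0.53, adjusted p = 0.216) did not pass. Of 3 photorespiration genes 2 fell, with a list median of -1.17: AT1G11860, the T protein of glycine decarboxylase, with 4147 and 5041 at 5W against 13184 and 13505 at 4W (-1.54 ± 0.25, adjusted p = 0.000461), and AT1G80380, glycerate kinase, with a ratio of 0.445 (-1.17 ± 0.19, adjusted p = 0.00067). Leaving out any 1 of the 4 arrays ended none of these 4 calls.

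The 7 measured nuclear genes of the photosystems and light harvesting were all lower at 5W (median -0.82), and 5 fell. PSAN, a subunit of photosystem I, had a signal of 13219 and 13411 at 5W against 26014 and 37727 at 4W (-1.23 ± 0.25, adjusted p = 0.00329). PSBY, of photosystem II, had 15965 and 13399 against 27168 and 36258 (-1.10 ± 0.23, adjusted p = 0.00351). The second 4W array, the one of the 4 with the highest actin ratio, was the brightest of the 4 for all 7 genes, and the 5W arrays lay close together. PSBW (-0.82 ± 0.22, adjusted p = 0.0194), PSAE-1 (-0.82, adjusted p = 0.0458) and LHCB4.1, an antenna protein (-0.83 ± 0.24, adjusted p = 0.0285), fell too, while LHCB4.2 and LHCB4.3 had changes of -0.72 and -0.60 and did not pass. LHCB4.1 and LHCB4.2 are close copies and their probe sets may share signal. The count of 5 was 0 without 4W replicate 2, 1 without 5W replicate 2, 2 without 5W replicate 1, 2 after quantile normalization, 2 with only the 16 blade arrays and 0 in a fit of the 4 arrays alone.

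**Figure D1:**
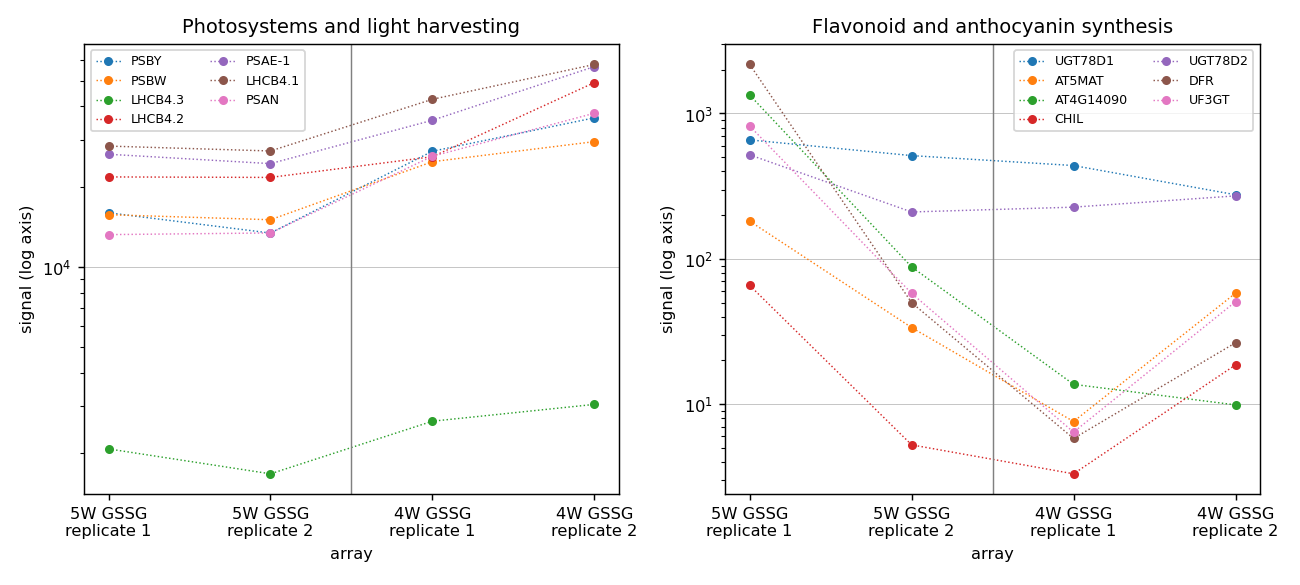
Signal (log axis) of each measured gene of 2 lists on the 4 GSSG blade arrays, the 5W arrays left and the 4W arrays right of the vertical line; dotted lines only join the values of 1 gene. The photosystem genes are lower on both 5W arrays, and DFR, AT4G14090 and UF3GT are high on 5W replicate 1 only (DFR 2174 there and 49.996 on 5W replicate 2).

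Of 69 measured genes of the chloroplast genome 6 fell and 0 rose, at a median of -0.31, which as a share is near the 6.33% of all probe sets. Plastid transcripts carry few poly(A) tails, and the labelling started at the 3' end. The largest were ccsA, for cytochrome assembly, with a signal of 10745 and 12337 at 5W against 18542 and 30786 at 4W (-1.05 ± 0.24, adjusted p = 0.00781), and 3 ribosomal protein genes. These were rpl16 (-0.95 ± 0.24, adjusted p = 0.0116), rpl22 (-0.84 ± 0.18, adjusted p = 0.00488) and rps19 (-0.80 ± 0.25, adjusted p = 0.0376). The remaining called members were rpl36, also ribosomal, and rpoA, a subunit of the plastid RNA polymerase. The 6 became 0 without 5W replicate 1 and 2 without 4W replicate 2. Of 8 nuclear genes of the plastid NDH complex, which drives cyclic electron flow, 3 fell (median -0.75). NdhL had 1891 and 2190 at 5W against 4414 and 4995 at 4W (-1.20 ± 0.23, adjusted p = 0.00193) and NdhN fell by 1.12 ± 0.28 (adjusted p = 0.0113). CRR41, an assembly factor of the complex, fell by 0.89 ± 0.26 (adjusted p = 0.0314). Without 4W replicate 1 or either 5W array 1 of the 3 passed. Of 7 HEM genes of the tetrapyrrole route 3 fell (median -0.51). HEME1, a uroporphyrinogen decarboxylase, had a signal of 507 and 519 at 5W against 1396 and 1630 at 4W (-1.53 ± 0.19, adjusted p = 5.75e-05), and HEME2 fell by 0.98 ± 0.20 (adjusted p = 0.00263). The third was HEMB1, given above with chlorophyll synthesis. Both of these families were picked after their values were seen.

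**Figure D2:**
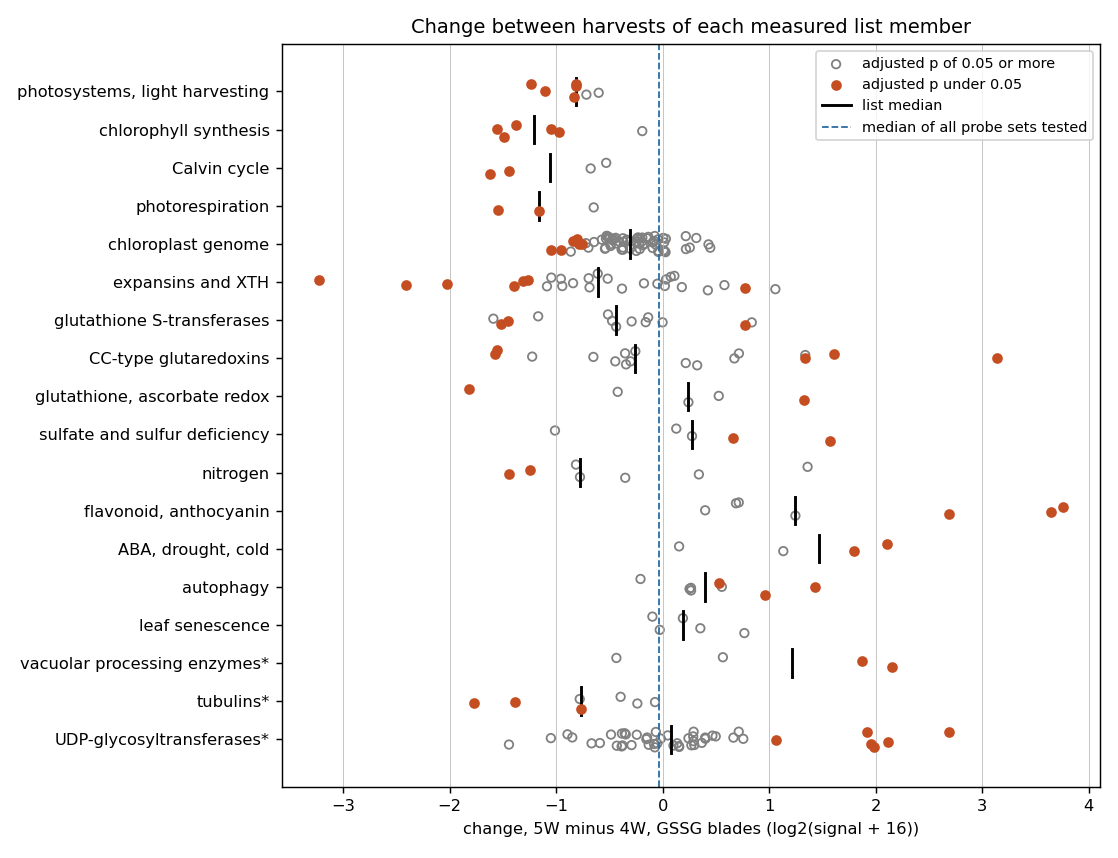
Change between harvests, 5W minus 4W on log2(signal + 16), of each measured member of 18 gene lists; filled points passed an adjusted p under 0.05, black bars are list medians, the dashed line is the median of all probe sets (-0.03) and an asterisk marks a family picked after its values were seen. The medians of the photosynthesis and chloroplast genome lists lie left of the dashed line, and 12 of the 69 chloroplast genome genes had a positive change. The glutaredoxin and redox lists hold called genes on both sides.

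The largest fall among the genes named was that of AT1G66100, of the thionin family of small secreted antimicrobial peptides. It had a signal of 597 and 168 at 5W against 7253 and 7963 at 4W, a ratio of 0.0502 (-4.50 ± 0.46, adjusted p = 9.51e-06). Its relative THI2.2 had 49.4 and 38.2 at 5W against 593 and 519 at 4W (-3.26 ± 0.51, adjusted p = 0.000415). AT2G10940, of the lipid transfer protein superfamily, had 352 and 177 against 8424 and 4227 (-4.49 ± 0.92, adjusted p = 0.00311). In all 3 genes the 4W arrays were several times brighter than either 5W array. Others lay near the floor at 5W: AT5G12940, a leucine-rich repeat protein, had 8.92 and 9.50 at 5W against 468 and 543 at 4W (-4.37 ± 0.56, adjusted p = 7.41e-05). The GDSL-type lipase genes AT4G18970 (-3.89 ± 0.70, adjusted p = 0.00116) and AT4G28780 (-3.80 ± 0.68, adjusted p = 0.00115) were also at 32.3 or less on both 5W arrays. AT3G10720, a pectin methylesterase, had 76.9 and 63.6 at 5W against 1315 and 864 at 4W (-3.65 ± 0.50, adjusted p = 0.000123). SKU5, a membrane-anchored protein known for directing root growth, had 426 and 285 against 3275 and 2913 (-3.09 ± 0.41, adjusted p = 0.000113). Both genes were low on each 5W array. BZIP61, a transcription factor (-3.17 ± 0.59, adjusted p = 0.00154), AT5G03350, a legume lectin-type protein (-3.12 ± 0.62, adjusted p = 0.00252), and AT1G11850 (-3.10 ± 0.63, adjusted p = 0.00311) completed the falls with AT1G49500 and AT5G48490, which are described below with the other waterings.

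STOMAGEN, a mesophyll peptide that promotes stomata in young leaves, had a signal of 38.8 and 39.97 at 5W against 642 and 412 at 4W (-3.26 ± 0.39, adjusted p = 4.06e-05). AT1G22690, whose promoter is used to mark guard cells, had 441 and 477 against 2348 and 2397, a ratio of 0.194 (-2.33 ± 0.40, adjusted p = 0.000942). FMA, a guard cell fate regulator, had 255 and 222 at 5W and 253 and 235 at 4W, which overlap (-0.03, adjusted p = 0.951). MUTE and SPCH, which act earlier in that lineage, stayed at 36.7 or less. So of the 10 genes listed for the guard cell lineage 5 were measured, 2 fell and 0 rose. STOMAGEN, a mesophyll peptide that acts on the lineage, is among these 2. In bulk blades fewer cells of a type and less RNA per cell cannot be told apart.

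Of 27 expansin and xyloglucan endotransglucosylase (XTH) genes 6 fell and 1 rose, with a median of -0.61. EXLA1 had a signal of 232 and 81.2 at 5W against 1730 and 1188 at 4W, a ratio of 0.107 (-3.22 ± 0.64, adjusted p = 0.00261). EXPA8 had 290 and 349 against 1386 and 2228 (-2.41 ± 0.49, adjusted p = 0.00296). Both expansin genes were lower on each 5W array, and EXLA1 differed more between its 5W arrays. EXLA2 (-2.03 ± 0.56, adjusted p = 0.0226) and XTH32, which cuts and rejoins xyloglucan (-1.40 ± 0.41, adjusted p = 0.0279), fell, and EXPA4 rose (0.77, adjusted p = 0.0341). The count of 7 was 3 without 5W replicate 1, 2 without 5W replicate 2, 4 without 4W replicate 1, 3 without 4W replicate 2, 4 with the title number as a term, 2 with only the 16 blade arrays and 3 in a fit of the 4 arrays alone. Of 7 tubulin genes, a family picked after its values were seen, 3 fell and 0 rose (median -0.77). TUB5, a beta tubulin, had a signal of 2539 and 2262 at 5W against 4344 and 3869 at 4W (-0.77 ± 0.19, adjusted p = 0.00977). TUB1 (-1.77 ± 0.41, adjusted p = 0.00789) and TUB7 (-1.39 ± 0.34, adjusted p = 0.0101) fell as well. The 3 became 0 without 4W replicate 1 and 1 without either 5W array.

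Among the largest rises, AT1G80130, a tetratricopeptide repeat protein, had a signal of 5684 and 7111 at 5W against 320 and 1018 at 4W, a ratio of 9.56 (3.43 ± 0.50, adjusted p = 0.000226). HIS1-3, a linker histone induced by drought, had 4990 and 4702 against 548 and 596, a ratio of 8.47 (3.05 ± 0.35, adjusted p = 2.82e-05). STZ, the zinc finger repressor also called ZAT10, had 1217 and 1698 against 173 and 241 (2.72 ± 0.59, adjusted p = 0.0047). The replicates of HIS1-3 lay close together at both harvests, and the 4W arrays of AT1G80130 lay further apart. AT1G52000, a jacalin-type lectin, had 3746 and 3256 at 5W against 430 and 304 at 4W (3.22 ± 0.39, adjusted p = 4.4e-05). AT1G76960 had 5944 and 5983 against 562 and 824 (3.10 ± 0.44, adjusted p = 0.000213), and AT2G17710 had 3715 and 2520 against 220 and 385 (3.32 ± 0.44, adjusted p = 9.32e-05). These 3 genes rose 8.61-fold to 10.3-fold. SHN3, a factor of the SHINE clade that controls wax and cutin (2.88 ± 0.57, adjusted p = 0.00239), AT4G27657 (2.78 ± 0.50, adjusted p = 0.0012) and AT5G52740, of a heavy metal-binding domain family (2.70 ± 0.46, adjusted p = 0.000766), were under a signal of 100 at 4W. So were AT5G39520 (3.78 ± 0.86, adjusted p = 0.007) and AT4G19370 (2.58 ± 0.70, adjusted p = 0.0199).

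Of the 30 genes named for the largest changes, 23 stayed called whichever of the 4 arrays was left out. Without 5W replicate 2 the adjusted p was 0.0543 for STZ and 0.0562 for EXLA1. AT5G39520 lost its call without 5W replicate 1 or 4W replicate 1 (adjusted p up to 0.0934), AT4G19370 without either of these or 5W replicate 2 (up to 0.174), and the other 3 were anthocyanin genes.

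**Figure D3:**
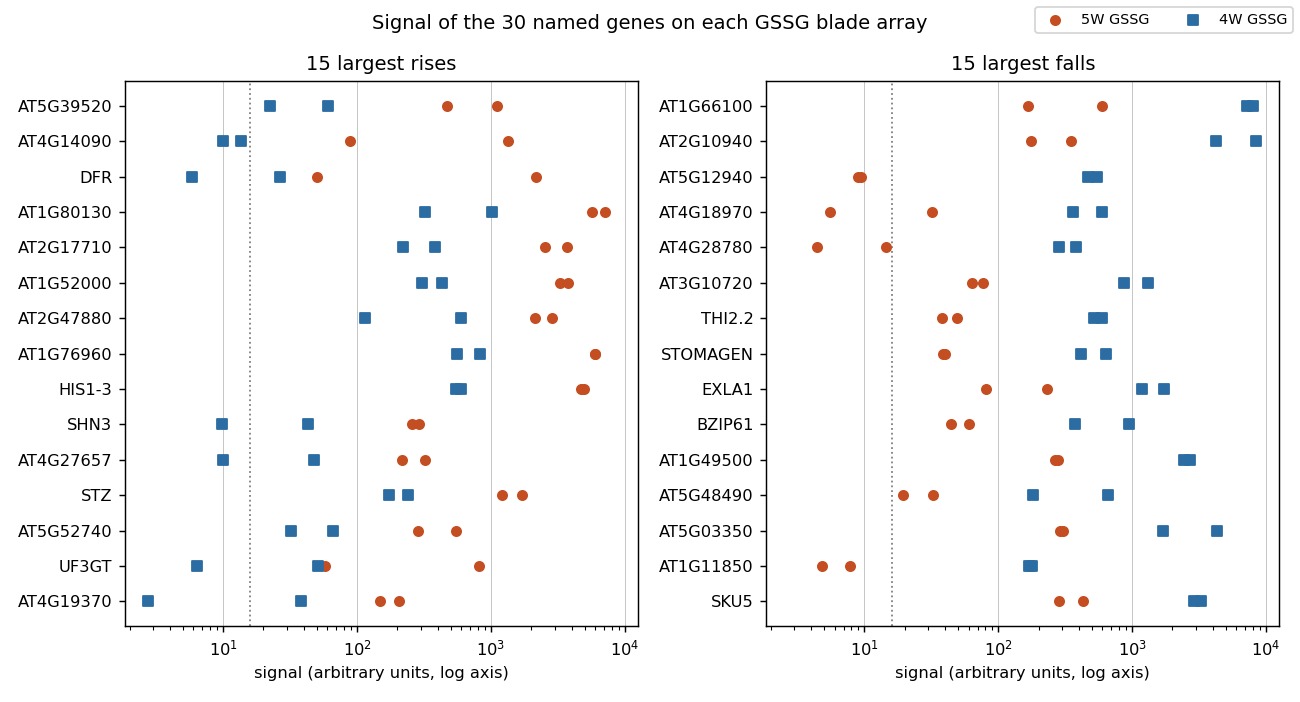
Signal (log axis) on each of the 4 GSSG blade arrays of the 15 genes with the largest rises and the 15 with the largest falls; circles are 5W, squares 4W, and the dotted line marks the 16 added before the log2 scale. The genes were picked so that circles and squares do not overlap, and UF3GT and DFR have 1 circle close to the squares (57.9 and 49.996).

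The 3 called genes of late anthocyanin synthesis were high on 1 of the 2 arrays at 5W. DFR, dihydroflavonol reductase, had a signal of 2174 and 49.996 at 5W against 5.81 and 26.5 at 4W (3.64 ± 0.97, adjusted p = 0.0177). AT4G14090, an anthocyanin 5-glucosyltransferase, had 1340 and 88.1 against 13.7 and 9.90 (3.76 ± 0.74, adjusted p = 0.00234). UF3GT, which adds a xylose to anthocyanins, had 820 and 57.9 against 6.43 and 50.7 (2.68 ± 0.80, adjusted p = 0.032). Replicate 1 was above replicate 2 at 5W by 5.05, 3.70 and 3.50 log2 units in these 3 genes, the largest such gaps among probe sets of 1 gene above the 40th percentile of signal. Of the 7 measured flavonoid genes these 3 rose and all 7 had a positive change (median 1.25). AT5MAT, a malonyltransferase, had 182 and 33.7 at 5W and 7.61 and 58.1 at 4W, which overlap (adjusted p = 0.239). UGT78D1, a flavonol glycosyltransferase, had 658 and 513 at 5W against 438 and 276 at 4W (0.71, adjusted p = 0.1). Without 5W replicate 1 none of the 3 passed (0 of 7, adjusted p from 0.055 to 0.538). Without 4W replicate 1 only AT4G14090 passed, with only the 16 blade arrays 1 of the 7 passed, and in a fit of the 4 arrays alone none did.

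Of the 4 measured genes of 32 listed for abscisic acid, drought and cold, 2 rose and 0 fell, and the list median was 1.47. LTI30, a dehydrin, had a signal of 3122 and 2799 at 5W against 507 and 902 at 4W, a ratio of 4.20 (2.10 ± 0.34, adjusted p = 0.000515). COR15A, a chloroplast protein that protects membranes in frost, had 25525 and 23808 against 4258 and 11731 (1.80 ± 0.39, adjusted p = 0.00469). In COR15A the second 4W array was clearly brighter than the first. COR47 (1.13, adjusted p = 0.0799) and COR15B (0.15, adjusted p = 0.807) did not pass. Without 4W replicate 1 COR15A did not pass (adjusted p = 0.0937), and in a fit of the 4 arrays alone 1 of the 4 passed. Of the jasmonate list 0 of 3 passed: the defensin PDF1.2 had 714 and 709 at 5W against 278 and 253 at 4W (1.37, adjusted p = 0.266), and its near copy PDF1.2b had 734 and 842 against 177 and 191 (2.01, adjusted p = 0.149). These 2 could share signal. Their GSSG arrays did not overlap between harvests, which was so in 54% of all probe sets. The spread in the model comes from all 24 arrays, and there 1 of the 3 passed at an unadjusted p under 0.05. In a fit of the 4 arrays alone, where the spread rests on only those arrays, 2 of the 3 passed.

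Of 8 autophagy genes 3 rose and 0 fell (median 0.40), all of the ATG8 family, whose products coat the autophagosome. ATG8B had a signal of 913 and 856 at 5W against 345 and 293 at 4W, a ratio of 2.77 (1.43 ± 0.34, adjusted p = 0.00834). ATG8G had 802 and 694 against 393 and 360 (0.96 ± 0.18, adjusted p = 0.00197), and ATG8D rose by 0.53 ± 0.14 (adjusted p = 0.0164). Each lay above its 4W arrays on both 5W arrays. ATG8F, the brightest of them, had 8306 and 7772 at 5W and 5434 and 8372 at 4W, which overlap. Without 5W replicate 1 or 4W replicate 2 the count of 3 was 1, and ATG8G was the member that kept its call without any 1 array. Of the 4 vacuolar processing enzymes, cysteine proteases of the vacuole and a family picked after its values were seen, 2 rose. GAMMA-VPE, the vegetative form, had a signal of 40351 and 31040 at 5W against 6253 and 10123 at 4W, a ratio of 4.36 (2.15 ± 0.36, adjusted p = 0.000707). BETA-VPE had 709 and 593 against 149 and 186 (1.87 ± 0.39, adjusted p = 0.00344). Both kept their calls without any 1 array, and ALPHA-VPE and DELTA-VPE were under 100 on all 4 arrays.

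Of 24 listed senescence genes 5 were measured and limma called 0, also 0 at an unadjusted p under 0.05, with a median of 0.19. Of the 5 measured, 3 were under a signal of 100 on all 4 arrays, so the list says little about senescence. WRKY53, an early regulator of senescence, had a signal of 305 and 206 at 5W against 109 and 181 at 4W (0.77 ± 0.38, adjusted p = 0.207). SAG101, a senescence-associated lipase-like protein, had 322 and 336 against 280 and 293 (0.19 ± 0.33, adjusted p = 0.782). WRKY22 (0.35 ± 0.52, adjusted p = 0.738) and WRKY6 (-0.10 ± 0.40, adjusted p = 0.916) had harvests that overlapped. In the starch list 1 of 5 rose: APL3, a large subunit of ADP-glucose pyrophosphorylase, had 1269 and 1007 at 5W against 517 and 358 at 4W (1.36 ± 0.24, adjusted p = 0.00119). SWEET11, a sucrose exporter of phloem parenchyma, had 10962 and 12156 against 14700 and 15601 (-0.39, adjusted p = 0.441).

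Redox genes changed in both directions. Of 5 glutathione and ascorbate enzymes measured of 40 listed, 1 rose and 1 fell. TAPX, the ascorbate peroxidase of thylakoids, had a signal of 894 and 949 at 5W against 3277 and 3294 at 4W, a ratio of 0.28 (-1.82 ± 0.20, adjusted p = 1.67e-05). ATMDAR2, a monodehydroascorbate reductase, which recycles ascorbate, had 3923 and 4108 against 1670 and 1510 (1.33 ± 0.27, adjusted p = 0.00344). In both the replicates lay close together. SAPX, the stromal ascorbate peroxidase (0.53 ± 0.19, adjusted p = 0.0715), and the glutathione reductases GR of plastids and mitochondria (-0.42 ± 0.17, adjusted p = 0.105) and GR1 of the cytosol (0.24, adjusted p = 0.334) did not pass. Of 13 glutathione S-transferases, which join glutathione to other molecules, 2 fell and 1 rose (median -0.44). GSTU18 had 483 and 470 at 5W against 1522 and 1283 at 4W (-1.52 ± 0.26, adjusted p = 0.000839), GSTF4 changed by -1.45 ± 0.31 (adjusted p = 0.00472) and GSTU16 rose by 0.78 ± 0.21 (adjusted p = 0.0208). GSTF4 lost its call without 5W replicate 2 (adjusted p = 0.0925) and GSTU16 without each array (up to 0.12), and TAPX, ATMDAR2 and GSTU18 kept theirs.

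Of 17 CC-type glutaredoxins, small plant oxidoreductases that carry a pair of cysteines, 3 rose and 2 fell (median -0.26). AT2G47880 had a signal of 2130 and 2864 at 5W against 114 and 602 at 4W, a ratio of 6.98 (3.13 ± 0.57, adjusted p = 0.00124). AT5G18600 fell, with 901 and 1745 at 5W against 3117 and 4571 at 4W (-1.58 ± 0.27, adjusted p = 0.000735). These 2 were the brightest called members, and each kept its call without any 1 array. AT4G33040 (1.34, adjusted p = 0.00201) and AT5G11930 (1.61 ± 0.34, adjusted p = 0.00403) rose and AT4G15700 (-1.55 ± 0.42, adjusted p = 0.0204), under 100 on all 4 arrays, fell. AT5G11930 lost its call without 5W replicate 1 (adjusted p = 0.086) and AT4G15700 without 5W replicate 1 or 4W replicate 2 (up to 0.284), and the list's count of 5 was 3 without 5W replicate 1. AT3G62950 differed most within harvests, at 5.21 and 150 at 5W and 2.15 and 260 at 4W.

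Of 5 sulfate and sulfur deficiency genes measured of 33 listed, 2 rose and 0 fell (median 0.27). AT1G04770, a relative of the sulfur deficiency-induced gene SDI1, had a signal of 695 and 945 at 5W against 210 and 328 at 4W, a ratio of 3.05 (1.57 ± 0.30, adjusted p = 0.00179). APS4, an ATP sulfurylase of the first step of sulfate assimilation, had 4375 and 4302 against 2385 and 3147 (0.66 ± 0.16, adjusted p = 0.0117). Both were higher on each 5W array. Its relative APS3 (0.27 ± 0.22, adjusted p = 0.484), sulfite reductase SIR (0.13, adjusted p = 0.714) and the sulfur deficiency-linked glucosidase BGLU28 (-1.01 ± 0.55, adjusted p = 0.255), under 100 throughout, did not pass. AT1G04770 kept its call without any 1 array and APS4 passed only with all arrays or without 4W replicate 2 (adjusted p up to 0.134).

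Of 7 nitrogen genes measured of 41 listed, 2 fell and 0 rose (median -0.78). AT1G25550, the nitrate-responsive repressor HHO3, had a signal of 354 and 533 at 5W against 1048 and 1397 at 4W (-1.44 ± 0.25, adjusted p = 0.000942). AT2G26690, a nitrate transporter of the leaf, had 313 and 297 against 611 and 905 (-1.24 ± 0.28, adjusted p = 0.00565). Both were lower on each 5W array. AT1G68670, the related repressor HHO2, had 402 and 508 against 709 and 917 (-0.81 ± 0.32, adjusted p = 0.105), and NRT2.5, a high-affinity nitrate transporter, had 85.5 and 104 against 45.5 and 14.0 (1.36 ± 0.50, adjusted p = 0.0823). Without 4W replicate 2 AT2G26690 did not pass (adjusted p = 0.0847).

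Other families were picked after their values were seen. Over all probe sets 12.5% were called, 6.2% higher and 6.33% lower at 5W. Of 48 UDP-glycosyltransferases 6 rose and 0 fell (median 0.07), a share called that lies near the 12.5% over all probe sets. The largest change of the 6 was that of UF3GT (2.68), the anthocyanin gene given above. It was high on 5W replicate 1 only (820, and 57.9 on 5W replicate 2) and is counted in both lists. UGT72E1, which glucosylates lignin precursors, had a signal of 2024 and 1943 at 5W against 485 and 493 at 4W, a ratio of 4.06 (1.99 ± 0.22, adjusted p = 2.78e-05). UGT73B5 (2.11 ± 0.51, adjusted p = 0.0094) and UGT71B6, which glucosylates abscisic acid (1.96 ± 0.58, adjusted p = 0.031), rose at signals of 152 or less, and the count of 6 was 3 without 4W replicate 2. Of 12 nuclear RNA polymerase subunits 5 rose and 0 fell (median 0.51). NRPA1, the largest subunit of polymerase I, had 226 and 298 at 5W against 96.9 and 113 at 4W (1.19 ± 0.25, adjusted p = 0.00402), and NRPA2 rose by 1.03 ± 0.23 (adjusted p = 0.00545). NRPC2 of polymerase III (0.76 ± 0.21, adjusted p = 0.021) and NRPB6A (0.51 ± 0.16, adjusted p = 0.0394) rose less. Their count was 1 or 2 without any 1 of the 4 arrays and 3 after quantile normalization. Of 6 LSM proteins, of mRNA decay and splicing, 3 rose and 1 fell, among them LSM6A (0.66 ± 0.15, adjusted p = 0.00673) and LSM1B (-0.99 ± 0.29, adjusted p = 0.0296). The 4 became 0 without 5W replicate 1.

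Of 22 trichome birefringence-like genes, acetyltransferases of wall polysaccharides, 4 fell and 1 rose (median -0.69). TBL38, the one that rose, had a signal of 851 and 535 at 5W against 150 and 205 at 4W, a ratio of 3.90 (1.85 ± 0.27, adjusted p = 0.000243). TBL36 fell by 1.11 ± 0.30 (adjusted p = 0.0206), and the count of 5 was 1 without 4W replicate 2 and 2 without either 5W array. Of 10 RALF-like genes, which encode signalling peptides, 2 fell and 0 rose (median -0.92), with RALFL24 at 165 and 173 at 5W against 538 and 478 at 4W (-1.50 ± 0.33, adjusted p = 0.0051) and RALFL32 at -1.19 ± 0.31 (adjusted p = 0.0144). Without 5W replicate 2 or 4W replicate 2, and with only the 16 blade arrays, the count of 2 was 1. CLE41, a phloem peptide that maintains the vascular cambium, was the 1 of 5 CLE genes that fell (-1.05 ± 0.27, adjusted p = 0.015). Of the 5, 2 had a positive change, and without 4W replicate 2 or either 5W array 0 passed. Of 15 IQD genes, which bind calmodulin, 2 fell, with iqd21 at 444 and 333 at 5W against 1208 and 1506 at 4W (-1.77 ± 0.32, adjusted p = 0.0013), and 1 fell without any 1 of the 4 arrays. Of 29 serine carboxypeptidase-like genes 2 fell and 1 rose, the largest being SCPL34 (-1.44 ± 0.30, adjusted p = 0.00389). Both 2 of 15 IQD genes and 3 of 29 of these genes lie near the 12.5% called over all probe sets. Without 5W replicate 2 or 4W replicate 1 the count of 3 was 1. With only the 16 blade arrays the counts were 2 of 12 RNA polymerase subunits, 2 of 6 LSM proteins, 2 of 22 trichome birefringence-like genes and 1 of 15 IQD genes.

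In the other lists 1 of 11 auxin genes fell, a share near the 12.5% called over all probe sets. That gene was GH3.9 (-1.71 ± 0.43, adjusted p = 0.0133), and the 1 measured NAC gene, NAC014, rose (0.84 ± 0.21, adjusted p = 0.0103). Neither passed without 4W replicate 2 or 5W replicate 2, and GH3.9 also did not without 5W replicate 1 (adjusted p up to 0.146). None passed among 6 WRKY genes, 4 glucosinolate genes, 3 iron genes, 3 heat shock genes, 2 cytokinin genes, 2 salicylate genes, 1 clock gene and 1 wax gene by limma. At an unadjusted p under 0.05 the clock gene, GI, was the 1 that passed. The other 9 of the 41 lists had no measured member, and 8730 probe sets were unnamed here.

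The same change was measured in the blades of the other waterings, which share no array with the GSSG ones but were harvested at the same 2 times. Over 13558 probe sets whose brighter GSSG harvest mean exceeded the 40th percentile of all probe sets' mean signals, the GSSG change correlated with that of GSH at Pearson's r = 0.77, with that of NH4NO3 at 0.78 and with that of water at 0.78, across genes, which are not independent replicates. Same-numbered arrays of 1 harvest deviated together (correlation of their deviations from group means with those of the GSSG arrays, 0.11 to 0.38), so anything that a harvest's arrays share enters these values, and harvest and a batch per harvest cannot be told apart. Over the 13647 probe sets whose mean over all 24 arrays exceeded that percentile, the median size of the change was 0.36 log2 units with GSSG, 0.30 with GSH, 0.27 with NH4NO3 and 0.34 with water. Of the probe sets called higher with GSSG, whose median there was 0.93, the median was 0.57 with GSH, 0.51 with NH4NO3 and 0.65 with water. For those called lower it was -1.16 with GSSG, -0.69 with GSH, -0.64 with NH4NO3 and -0.83 with water. Having been called in GSSG raises its own medians.

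**Figure D4:**
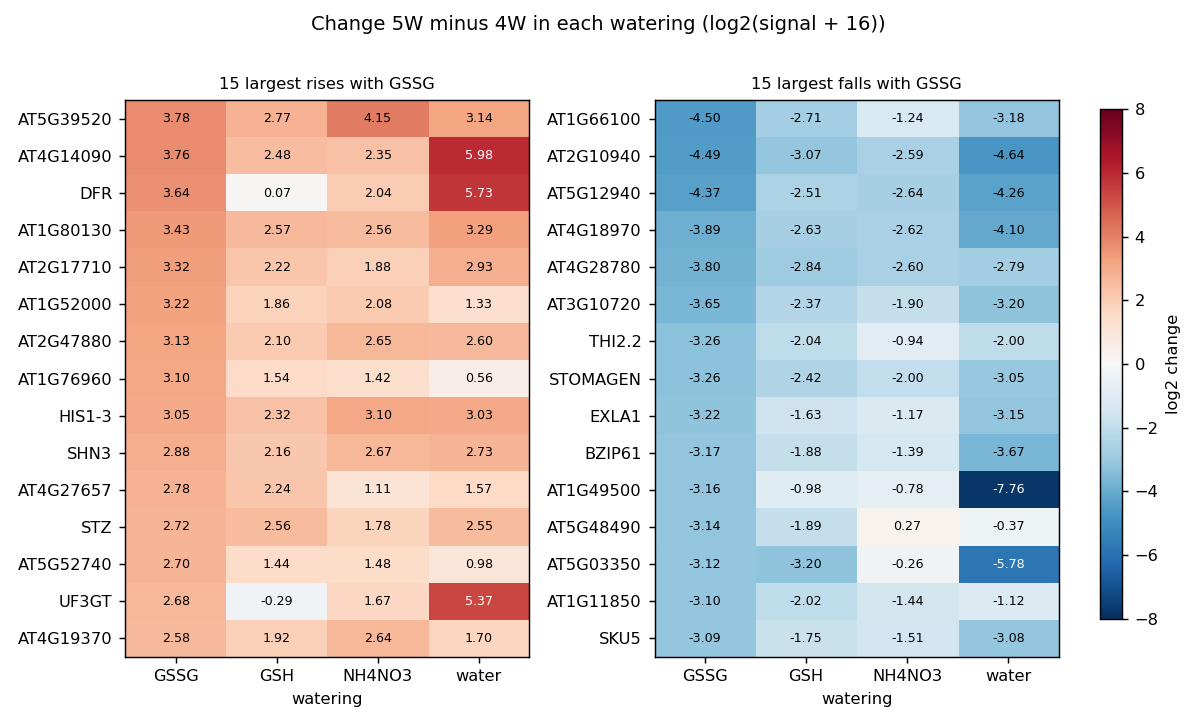
Change 5W minus 4W on log2(signal + 16) in each of the 4 waterings (columns) for the 30 genes named for GSSG (rows), with the value in each cell; red is higher and blue lower at 5W. Most cells share the sign of the GSSG column, with DFR and UF3GT near 0 with GSH (0.07 and -0.29) and AT1G49500 at -7.76 with water.

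Among the genes named, HIS1-3 changed by 3.05 with GSSG, 2.32 with GSH, 3.10 with NH4NO3 and 3.03 with water, and STOMAGEN by -3.26, -2.42, -1.9996 and -3.05 in the same order. AT1G76960 changed by 3.10 with GSSG, 1.54 with GSH, 1.42 with NH4NO3 and 0.56 with water. COR15A changed by 1.80 with GSSG, 0.88 with GSH, 0.54 with NH4NO3 and -0.31 with water. DFR changed by 3.64 with GSSG, 0.07 with GSH, 2.04 with NH4NO3 and 5.73 with water. AT1G25550 changed by -1.44 with GSSG, -0.62 with GSH, 0.06 with NH4NO3 and -3.003 with water. None of these 6 genes passed the tests of the difference that follow. Among the lists, the median change of the 6 chlorophyll genes was -1.21 with GSSG, -0.79 with GSH, -0.54 with NH4NO3 and -0.98 with water. In the same order that of the 7 photosystem genes was -0.82, -0.64, -0.74 and -0.97. For the 4 Calvin cycle genes it was -1.06, -0.96, -0.64 and -0.64, and for the 3 photorespiration genes -1.17, -0.83, -0.68 and -0.60. That of the 7 flavonoid genes was 1.25, 0.12, 0.59 and 3.13 in the same order.

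The difference between the GSSG change and that of each other watering was tested in the same fit. Against water 2 probe sets of 22746 (0.00879%) passed, both with a positive difference (GSSG minus water), beside 1512 at an unadjusted p under 0.05. AT1G49500, whose product is not described here, had a signal of 263 and 280 at 5W against 2686 and 2439 at 4W with GSSG (-3.16 ± 0.37, adjusted p = 3.19e-05). With water it had 8.04 and 7.05 at 5W against 3427 and 7568 at 4W (-7.76, adjusted p = 1.81e-10). It was thus lower at 5W in both, with the water arrays of 5W under the 16 added before the log2 scale. The difference was 4.60 ± 0.52 (adjusted p = 0.000728), and its size depends on that addition: it was 3.21 with 64 added, where the adjusted p was 0.0638. With GSH this gene had 1325 and 836 at 5W against 1990 and 2209 at 4W, and with NH4NO3 3813 and 4429 against 4510 and 11015.

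The other was probe set 248267_at, unnamed here and picked for mention once its value was known. With GSSG it had 1647 and 2680 at 5W and 1885 and 2183 at 4W, which overlap (0.05, adjusted p = 0.922). With water it had 877 and 622 at 5W against 3526 and 3042 at 4W (-2.12, adjusted p = 5.7e-06). The difference was 2.17 ± 0.31 (adjusted p = 0.0121), and without 5W GSSG replicate 2 it did not pass (1.83, adjusted p = 0.145). Nor did it with a prior without trend (adjusted p = 0.117), with only the arrays compared (0.141) or with only the 16 blade arrays (0.189). The next named genes by p did not pass: AT3G08030, a cell wall protein of the DUF642 family (2.41 ± 0.41, adjusted p = 0.0802), and AT5G20950, a glycosyl hydrolase (1.14 ± 0.21), AT1G33930 (2.90 ± 0.56) and AT5G48490 (-2.77 ± 0.53), each with an adjusted p of 0.133. With a replicate block AT3G08030 passed (adjusted p = 0.0089), as it did with a block within each harvest (0.000706) and with that block as random (0.0128). The 2 blocks within harvest were chosen after seeing the data. AT3G08030 passed in 6 of 18 alternatives, and with only the 16 blade arrays its adjusted p was 0.464. AT5G20950 passed in 2 of 18 alternatives and AT5G48490 in 3, the block within each harvest among them (adjusted p = 0.0256 and 0.0297). AT3G08030 had 523 and 711 at 5W against 2245 and 1494 at 4W with GSSG, and 112 and 78.2 against 2144 and 1364 with water. The count of 2 was 5, 1 and 9 without 5W replicate 1, 5W replicate 2 and 4W replicate 1.

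**Figure D5:**
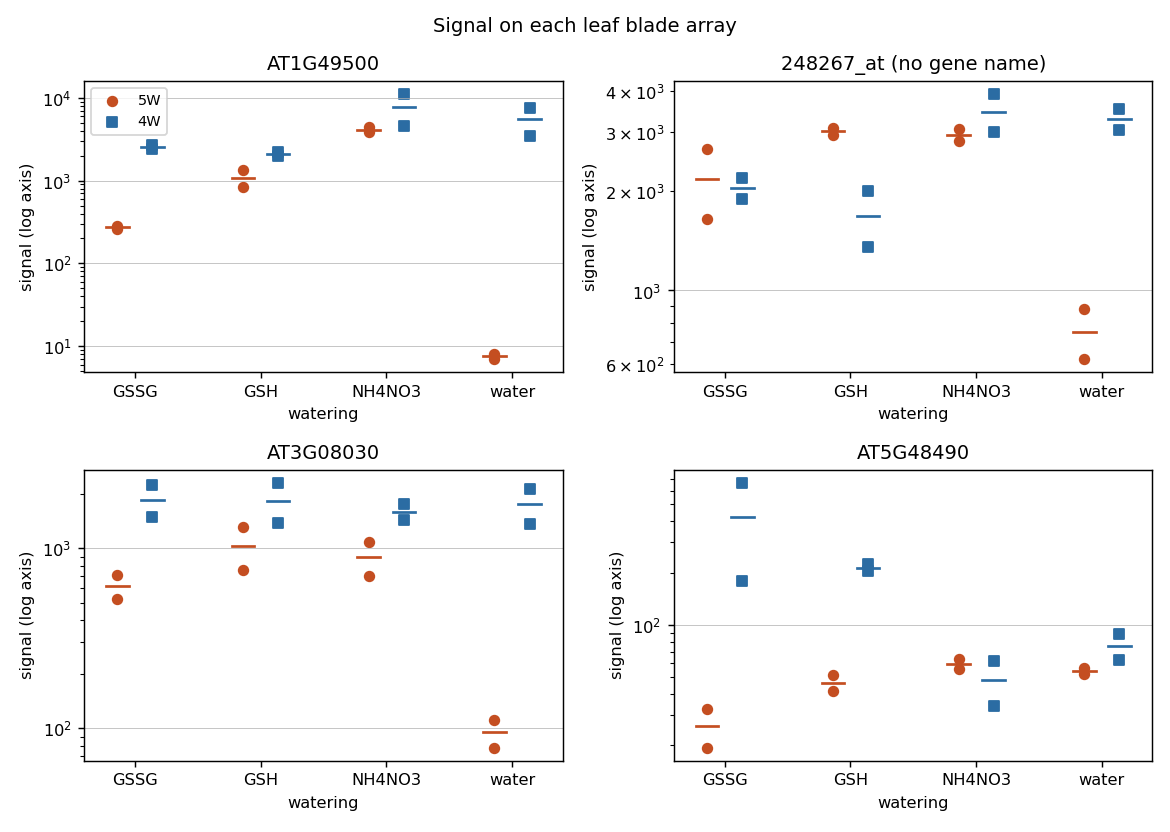
Signal (log axis) on each leaf blade array of AT1G49500, probe set 248267_at, AT3G08030 and AT5G48490 in 4 waterings; circles are 5W, squares 4W, and bars are the mean of 2 arrays. AT1G49500 at 5W is lowest with water (8.04 and 7.05) and next lowest with GSSG (263 and 280), and AT5G48490 at 4W is highest with GSSG and GSH.

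Against NH4NO3 limma called 0 probe sets, beside 1278 at an unadjusted p under 0.05. The smallest adjusted p was 0.0784 for AT5G48490, a relative of the defence-linked lipid transfer protein DIR1. It had a signal of 19.5 and 32.6 at 5W against 180 and 664 at 4W with GSSG (-3.14 ± 0.38, adjusted p = 4.06e-05), and 63.6 and 55.2 at 5W and 62.1 and 34.1 at 4W with NH4NO3, which overlap. The difference was -3.41 ± 0.53, and its adjusted p was 0.0178 with a replicate block, 0.0107 with a block within each harvest and 0.0366 with that block as random. It passed in 8 of 18 alternatives, and the blocks within each harvest were chosen after seeing the data. AT2G16660, of the major facilitator family, had 1792 and 2060 against 890 and 1074 with GSSG, and 2563 and 2639 against 6991 and 4604 with NH4NO3 (2.08 ± 0.38, adjusted p = 0.204). It passed in 3 of 18 alternatives, among them a replicate block (adjusted p = 0.0134) and a block within each harvest (0.00297). AT1G66100 (-3.26 ± 0.64), AT5G20180, a ribosomal protein of the L36 family (1.10 ± 0.23), and AT1G49500 (-2.39 ± 0.52) did not pass, with adjusted p of 0.362 to 0.374. AT1G66100 passed in 2 of 18 alternatives, among them the block within each harvest (adjusted p = 0.000154). Without 4W replicate 1 there were 2 calls and without 5W replicate 1 there was 1.

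Against GSH, the reduced form of the same tripeptide, limma called 0 probe sets, with 1373 at an unadjusted p under 0.05 and a smallest adjusted p of 0.242. None of the named genes with the smallest p passed. AT3G16850, of the pectin lyase fold family, had a signal of 673 and 746 at 5W against 1490 and 1603 at 4W with GSSG, and 1169 and 860 at 5W against 1084 and 943 at 4W with GSH (-1.10 ± 0.24, adjusted p = 0.538). AT5G20180 had 2529 and 2353 against 934 and 664 with GSSG, and 1572 and 1888 against 1078 and 1270 with GSH (1.06 ± 0.23, adjusted p = 0.538). AT3G07450 (-3.47 ± 0.75), AT5G02350 (-2.78 ± 0.61) and AT5G09840 (2.79 ± 0.64) were under 100 on all 8 of these arrays. Without 5W replicate 2 or 4W replicate 1 there were 2 calls.

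Against the mean of the 3 other waterings limma also called 0, with 1248 at an unadjusted p under 0.05. AT5G48490 (-2.47 ± 0.43) and AT5G20180 (1.00 ± 0.19) had the smallest p among named genes, both with an adjusted p of 0.232. AT1G21090 (-2.51 ± 0.52), AT3G32060 (1.94 ± 0.43) and AT3G16120 (-1.92 ± 0.45) followed at 0.51 to 0.672. AT5G48490 and AT5G20180 each passed in 1 of 18 alternatives. Their differences were -3.37 and 1.25 without 4W replicate 1. Without 4W replicate 1 there were 12 calls, 10 of them positive. With 2 arrays in each group, a p that missed the threshold does not show that the waterings changed alike.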

How the data were processed

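The deposited values are 1 intensity per probe set and array on a linear scale, made by the authors with Affymetrix Expression Console, per the submitters' processing notes; the algorithm is not given in the sources used here. Every array had a trimmed mean of about 500, so no normalization was added. The 64 control probe sets were left out. On log2(signal + 16) all 24 arrays, the 8 of 3 weeks included, entered 1 linear model of the 12 group means (limma 3.58.1, R 4.3.3; trend prior, 12 residual and 7.39 prior degrees of freedom), and contrasts were adjusted over 22746 probe sets; a call is an adjusted p under 0.05. With 2 arrays per group precision is limited by their number. The procedure was tested on simulated data with independent noise on every array. That test does not cover deviations shared by the arrays of 1 harvest.

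Genes were named through the platform annotation, with symbols from TAIR10.1: 13513 probe sets had 1 gene (13436 matched), 503 several, 8730 none. Text names, per contrast, called genes with the largest change (15 up and 15 down for GSSG, with a higher mean above the 40th percentile of signal and harvests not overlapping; 5 each for differences, or the 5 smallest p), up to 4 called members per list, and up to 4 members by p of the sulfate, redox, nitrogen, senescence and photosystem lists. A list takes each gene's brightest probe set; 41 lists and 12 families were used. Members, lists and rules were chosen with earlier results of these data known, and the 12 families, and members named only to complete a count, after their values were seen. Alternatives were another scaling, filter, pseudocount, prior, set of arrays or block, and each array left out. Sequences and promoter motifs were not analysed here. Tables and plots used Python 3.11.15.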

Additional observations from a re-analysis of the deposited data

Results flagged for a closer look

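The change of AT1G49500 between harvests differed between GSSG and water by 4.60 ± 0.52 (SE) on the log2 scale (adjusted p = 0.000728, and 0.0638 with a pseudocount of 64), a test of the difference itself over all probe sets. The gene was lower at 5W than at 4W on both arrays of each of these waterings. The change of probe set 248267_at, unnamed here, differed between GSSG and water by 2.17 ± 0.31 (adjusted p = 0.0121). That call was lost in 4 of 18 alternatives, with an adjusted p of 0.117 with a prior without trend, 0.141 with only the arrays compared, 0.189 with only the 16 blade arrays and 0.145 without 5W GSSG replicate 2. It was lower at 5W on both water arrays, and its GSSG arrays overlapped between harvests. Groups of 2 arrays were not tested for samples that stand apart.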

How the results depend on the processing

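Of 2040 pairs of a named gene and an alternative for the GSSG change between harvests, 1789 kept direction and side of the threshold, 239 lost the call, 7 gained one and 5 changed sign, all in senescence genes without a call: WRKY6 was 0.11 after quantile normalization and 0.14 without 5W replicate 2, SAG101 was -0.015 with the title number as a term, and WRKY22 was -0.38 without 4W replicate 2 and also without the 4W replicate 2 arrays of all waterings. Without 1 array WRKY22 ranged from -0.38 to 1.08 and WRKY6 from -0.34 to 0.14. The count of 2851 was 1395 in a fit of the 4 arrays alone and 1155 to 2080 without 1 array. It was 3257 with a replicate block, 2071 with only the 16 blade arrays and 2709 after quantile normalization. The 2 calls against water were 5 with a pseudocount of 1, 1 with 64, 1 with a prior without trend, 18 with the title number as a term, 4 with only the arrays compared (1 of the 2 among them), 1 with only the 16 blade arrays, 4 without the 4W replicate 2 arrays, and 1 to 9 without 1 array. The 0 calls against NH4NO3 were 1 after centring, 1 with a pseudocount of 1, 1 with a robust prior, 3 with a replicate block, 6 with the title number, 1 without the 4W replicate 2 arrays and 0 to 2 without 1 array. Those against GSH were 0 to 2 and those against the mean of the others 0 to 12 without 1 array. The cause was not tested. Replicate numbers did not pair the GSSG harvests (correlation of same-numbered deviations 0.02) but arrays of 1 harvest deviated together. So 2 blocks were chosen after seeing the data. With a replicate block within each harvest the counts were 4209, 44 against water, 16 against NH4NO3 and 2 against the mean; with that block as random (correlation 0.12) they were 3060, 4, 1 and 0. Where the array left out leaves 1 array in a group, that array is assumed to vary like the other groups. Many genes under a signal of 100 are too dim for a ratio.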
